A study of Mus musculus with 12 samples.

Results

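Endothelial cells of epididymal fat and of mesentery were compared in mice on a high fat diet. The comparison used 3 bulk RNA-seq libraries of each tissue, 6 of the 12 libraries in the series, and these were chosen by their labels: the epididymal and mesentery libraries titled HFD, replicates A, B and C. It covered every gene with a mean of at least 10 normalized counts over these 6 libraries, which were 22082 of 27825 genes in the table. The gene just inside that threshold, 4930589L23Rik, had a mean of 10.0008, and the gene just outside it, Gnb3, had a mean of 9.999. All mice were male, carried ROSA26-eYFP+/+ and Cdh5-CreERT2+, and were fed tamoxifen from 6 weeks of age for 2 weeks, so that Cre under the control of the endothelial gene Cdh5 turned on a yellow fluorescent protein. The high fat diet held 60% fat and was given from 8 weeks of age for 12 to 13 weeks. The other 6 libraries came from the same tissues of mice on chow with 5.8% fat and are used here only to test whether the tissue difference depended on diet. Each library was made from fluorescent cells sorted from the combined tissue of 6 mice, after digestion with actinomycin D, which blocks transcription, and lysis of red blood cells. The labels speak of fewer independent replicates than the 3 libraries of a group, so the error may be understated if some libraries share an experiment.

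Endothelial cells line blood and lymph vessels, and their gene expression depends on the organ they supply. Vessels of the gut and mesentery develop in mesoderm patterned by homeobox and forkhead transcription factors, and many capillaries of the gut have fenestrae, pores closed by a diaphragm. Capillaries of fat have continuous walls, and their endothelium takes up fatty acids released from circulating lipoproteins by lipoprotein lipase.

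The 6 libraries held from 10566020 reads in mesentery replicate B to 25397963 reads in epididymal replicate C. Log2 values of library pairs within a tissue correlated across genes with Pearson's r between 0.811 and 0.965. Reads of mitochondrial genes made up 5.96% to 10.1% of the mesentery libraries and 3.07% to 5.94% of the epididymal libraries. Values given in threes are those of replicates A, B and C, in that order. A log2 difference is epididymal minus mesentery on the scale of log2(normalized count + 1), with its standard error from limma, and a gene is called when its adjusted p is under 0.05. The scale used for the libraries matters for the direction of small differences. The median difference over all genes tested was 0.04 with the authors' normalization, -0.13 when the libraries were rescaled to the same total, and 0.86 when they were rescaled to the same level of pan-endothelial genes, a scale chosen after the data had been seen. In these bulk samples, fewer cells of a type and less RNA per cell cannot be told apart.

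On the high fat diet 1868 of the 22082 genes were called, which is 8.46%. Of these, 1101 were higher in epididymal endothelium (4.99% of genes tested) and 767 were lower (3.47%). All 1868 had a difference of the same sign in the 3 pairs of libraries that share a number in their descriptions, here called the pool number. The 3 epididymal values did not overlap the 3 mesentery values for 1863 of them. Both counts come from the values that made the calls, so they are not separate support. Over all genes tested, 26.5% had groups that did not overlap. The called genes differed at least 2-fold in 1442 cases and at least 4-fold in 715. Higher genes made up 58.9% of the calls with the authors' normalization, 35.5% at the same total and 96.5% at the same pan-endothelial level. Without epididymal replicate C 727 genes were called, without mesentery replicate B 814, without mesentery replicate A 1196, and edgeR on the recovered reads called 1030.

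**Figure D1:**
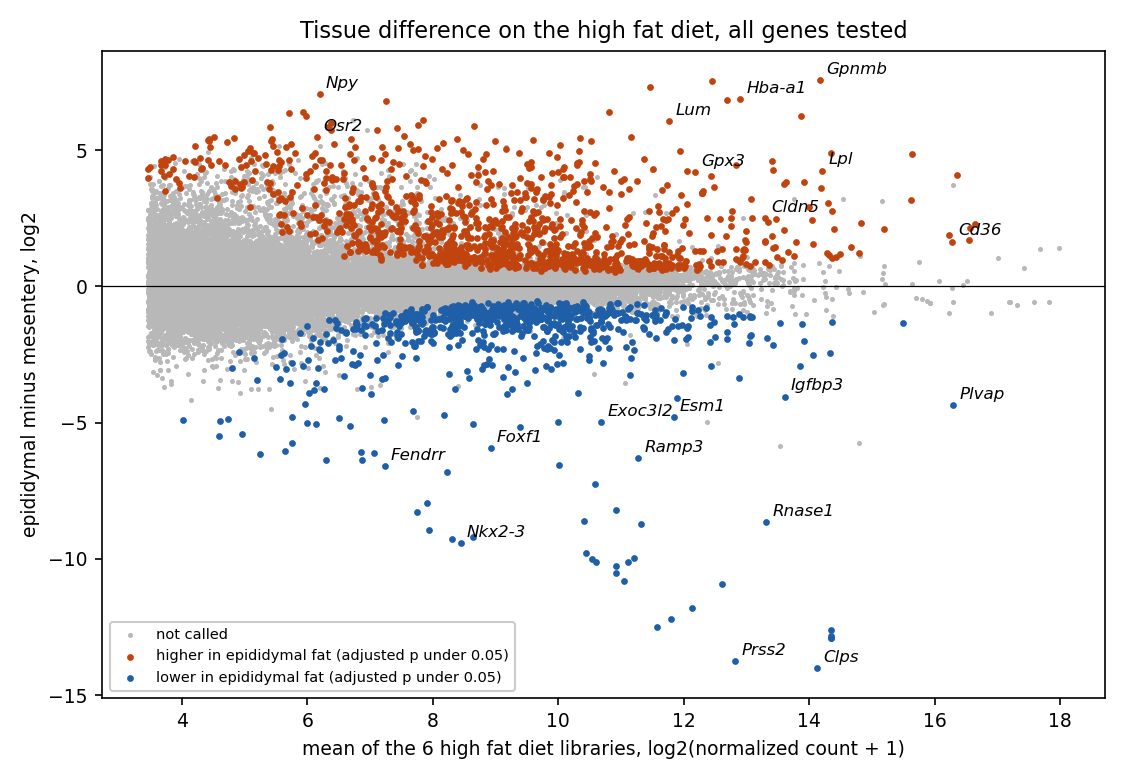
Each point is 1 of the 22082 genes tested: the horizontal axis is the mean of the 6 high fat diet libraries as log2(normalized count + 1), and the vertical axis is the log2 difference, epididymal minus mesentery. Red points are the 1101 genes called higher and blue points the 767 called lower; the lowest points include the pancreatic genes Clps and Prss2, and Nkx2-3 stands apart among the transcription factors.

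Transcription factors of regional identity separated the tissues. In the list of these factors 29 members were tested, of which 7 were lower in epididymal endothelium and 4 were higher, with a median of 0.68 against 0.04 over all genes. The called members made up 37.9% of the list, against 8.46% of all genes. Because the lists were chosen with earlier results of these data known, the list shares here and below are not separate support. The share over all genes also depends on the filter: with a mean of at least 50, 2151 of 12996 genes were called. Those lower in epididymal endothelium were Nkx2-3, Foxf1, Tlx1, Meis2, Meox1, Irx3 and Gata2. Those higher were Osr1, Osr2, Tcf21 and Meox2. At the same pan-endothelial level the count was 9 higher and 7 lower.

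Nkx2-3, a homeobox factor of gut and spleen vessels, had 561, 801 and 723 normalized counts in mesentery and no read in any epididymal library. Its mean level was at least 262-fold higher in mesentery, with a floor of 3 reads per epididymal library, and the adjusted p was 2.99e-07. Foxf1, a forkhead factor of gut and lung mesoderm and their vessels, had 959.6, 1225 and 672 in mesentery and 13.5, 12.4 and 17 in epididymal endothelium. Its log2 difference was -5.93 ± 0.40 (adjusted p = 2.05e-06). The groups were far apart for both factors. Fendrr, the long noncoding RNA transcribed next to Foxf1, followed with 361, 312 and 210.5 against 10.1, 0 and 1.42, a log2 difference of -6.59 ± 0.81 (adjusted p = 0.000272). Whether the counting used strand is not given in the sources used here, so reads of neighbouring genes that overlap may be shared. Tlx1, a homeobox gene needed for spleen development, was low, with 11.2, 59.6 and 68.2 in mesentery and 1 read in all epididymal libraries together. The ratio of its levels was 155, with a 95% counting interval from 27.4 to 6188. Its adjusted p of 0.0153 rose to 0.0788 without mesentery replicate B, 0.0508 without mesentery replicate C and 0.0566 in a fit of the 6 high fat libraries alone.

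The other factors that were lower in epididymal endothelium were detected in both tissues. Meis2, a TALE homeobox factor, had 751, 782 and 858 in mesentery against 243, 91.7 and 60.9 in epididymal endothelium, a log2 difference of -2.83 ± 0.40 (adjusted p = 0.000811). Meox1, a mesoderm homeobox factor, had 2366, 3296 and 2593 against 525, 929 and 629 (log2 difference -2.01 ± 0.23). For Irx3, of the Iroquois family, the log2 difference was -1.66 ± 0.28, and for Gata2, a zinc finger factor of endothelium and blood precursors, it was -1.41 ± 0.26. All mesentery libraries were above all epididymal libraries for these 4 genes. At the same pan-endothelial level the differences were -1.99 for Meis2, -1.17 for Meox1, -0.82 for Irx3 and -0.57 for Gata2, all still called. Prdm1, which encodes the transcriptional repressor Blimp-1, also fell, from 589, 753 and 663 to 63, 72.7 and 99.1 (log2 difference -3.10 ± 0.24, adjusted p = 5.57e-06).

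The factors that were higher in epididymal endothelium included genes of mesenchymal development. Osr1, a zinc finger factor of intermediate mesoderm, rose from 32.7, 29.1 and 43.5 in mesentery to 341, 397 and 352 (log2 difference 3.35 ± 0.38, adjusted p = 0.00012). Tcf21, a basic helix-loop-helix factor of mesenchymal progenitors, rose from 2.81, 54.1 and 7.9 to 169.8, 377 and 372 (log2 difference 4.55 ± 0.89, adjusted p = 0.00702). Osr2, a relative of Osr1, had 0, 0 and 4.94 against 12.4, 166 and 238, with the epididymal replicate A far below the others. Its log2 difference was 5.48 ± 1.32 (adjusted p = 0.022), and the call was lost when any 1 of mesentery replicates A and B and epididymal replicates B and C was left out (adjusted p between 0.0756 and 0.125). Markers of fibroblasts, which also express such factors, were higher in the same libraries: their summed level was 5137 to 11095 in mesentery and 53507 to 69242 in epididymal libraries, and their part in these results was not tested. Meox2, a homeobox factor that in muscle and heart endothelium drives fatty acid uptake genes, is expressed by endothelium itself. It had 1291, 667 and 666 in mesentery and 1565, 4429 and 2425 in epididymal endothelium (log2 difference 1.62 ± 0.38, adjusted p = 0.02). Its call was lost at the same total (adjusted p = 0.0617), and without mesentery replicate B (0.0951) or C (0.061) or epididymal replicate B (0.0754) or C (0.0696).

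Of 26 Hox genes tested, which mark position along the body axis, 2 were lower and 1 was higher, with a median of 0.32. The share called was 11.5%, near the 8.46% of all genes. Hoxb5 fell from 531, 592 and 458 to 136, 254 and 189.7, with a log2 difference of -1.48 ± 0.25 (adjusted p = 0.00279). At the same pan-endothelial level 10 Hox genes were called higher and 1 lower. On that scale Hoxb5 had a difference of -0.64 and was still called.

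Promoter sequences are shown for the 2 mesentery regulators Nkx2-3 and Fendrr and for Ramp3, a receptor component that was lower in epididymal endothelium. The sequences also include that of Cldn5, the only pan-endothelial gene called higher in the main test. They are the 250 bases before the annotated start, 5′ to 3′ in the direction of the gene, from RefSeq on build GRCm38.p6, which is not the build to which the reads were aligned. Capitals mark matches, on either strand, to the letters of 4 motifs. The letters TGTTTAC are bound by forkhead proteins such as Foxf1. The letters TNAAGTG are the core bound by proteins of the NKX2 class, to which Nkx2-3 belongs. The letters AGATAA are recognised by zinc finger proteins of the family of Gata2. The letters AGGAAG are read by ETS proteins, which are active in all endothelium.
Nkx2-3 promoter (chr19:43612075-43612324, plus strand): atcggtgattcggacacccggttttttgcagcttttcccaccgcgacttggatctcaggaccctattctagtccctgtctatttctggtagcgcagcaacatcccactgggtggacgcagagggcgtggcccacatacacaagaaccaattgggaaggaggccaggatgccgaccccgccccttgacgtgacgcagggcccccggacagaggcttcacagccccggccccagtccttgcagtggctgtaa
Fendrr promoter (chr8:121083111-121083360, minus strand): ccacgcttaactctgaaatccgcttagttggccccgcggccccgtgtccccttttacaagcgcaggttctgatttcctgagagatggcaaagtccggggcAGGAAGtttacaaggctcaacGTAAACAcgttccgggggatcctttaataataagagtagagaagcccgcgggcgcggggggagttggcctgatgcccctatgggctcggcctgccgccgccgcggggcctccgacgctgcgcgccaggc
Ramp3 promoter (chr11:6658283-6658532, plus strand): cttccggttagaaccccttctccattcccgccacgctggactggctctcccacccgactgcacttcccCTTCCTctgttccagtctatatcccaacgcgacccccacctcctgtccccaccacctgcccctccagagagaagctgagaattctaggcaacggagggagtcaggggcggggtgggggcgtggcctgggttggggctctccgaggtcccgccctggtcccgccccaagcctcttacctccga
Cldn5 promoter (chr16:18776597-18776846, plus strand): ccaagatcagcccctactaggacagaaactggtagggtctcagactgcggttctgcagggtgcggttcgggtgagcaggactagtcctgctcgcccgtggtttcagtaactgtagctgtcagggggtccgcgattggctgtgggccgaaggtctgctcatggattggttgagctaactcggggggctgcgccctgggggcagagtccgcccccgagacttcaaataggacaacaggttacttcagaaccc
The forkhead letters were found in the Fendrr window, whose 2 matches are forkhead and ETS and do not overlap, and in 3.17% of all 32851 promoter windows of this length. The ETS letters were found in the Fendrr and Ramp3 windows and in 29.5% of all windows. The NKX2 letters were in 10.1% and the GATA letters in 9.99% of all windows, and in none of these 4. Among genes with a window, the forkhead letters were found for 2.81% of the 13125 tested, for 3.35% of the 568 called lower and for 2.34% of the 770 called higher. A match describes letters in a window and is not evidence of binding.

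Plvap, Igfbp3, Ramp3 and Esm1, genes of the endothelial wall and surface, were lower in epididymal fat. Plvap, the protein of fenestral and caveolar diaphragms, had 131661, 192785 and 134501 normalized counts in mesentery and 6347, 8199 and 7626 in epididymal endothelium. Its mean was 20.7-fold higher in mesentery (log2 difference -4.36 ± 0.33, adjusted p = 4.63e-06). Igfbp3, which binds insulin-like growth factors, had 21095, 27001 and 21969 against 694, 2407 and 1654 (log2 difference -4.05 ± 0.39, adjusted p = 3.57e-05). For both genes every mesentery library was far above every epididymal library. In the list of fenestra and caveola genes 12 were tested, 4 were lower and none was higher, with a median of -0.25. The share called was 33.3%, against 8.46% of all genes. At the same pan-endothelial level 7 were called higher and 3 lower, with a median of 0.59, so the list had no direction that held on every scale. Ehd4, a membrane-shaping ATPase, had a log2 difference of -1.43 ± 0.18 (adjusted p = 0.000308), and of -0.59 at the same pan-endothelial level (adjusted p = 0.043). Cav1, the main coat protein of caveolae, had 17581, 14306 and 20478 in mesentery and 22144, 56311 and 40771 in epididymal endothelium and was not called (log2 difference 1.10 ± 0.35, adjusted p = 0.0745).

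Ramp3, the receptor partner that with Calcrl binds adrenomedullin, had 4239, 5634 and 4801 in mesentery and 23.6, 93.3 and 102 in epididymal endothelium. This was 67.1-fold by the means (log2 difference -6.29 ± 0.50, adjusted p = 6.9e-06). Esm1, or endocan, a proteoglycan of tip cells, had 6826, 7789 and 6421 against 92.2, 487 and 339 (log2 difference -4.81 ± 0.53, adjusted p = 0.000104). Epididymal replicate A was lowest for both genes, and no epididymal library came near the mesentery values. Exoc3l2, of the exocyst family, had the smallest adjusted p of the genes named by p, 1.49e-07, with 3712, 3274 and 2542 against 71.9, 99.9 and 129.5 and a log2 difference of -4.99 ± 0.25. Clec14a, an endothelial C-type lectin, fell from 8397, 12062 and 8733 to 1112, 1529 and 1215 (log2 difference -2.91 ± 0.23). Rai14, an actin-binding protein, fell from 1398, 1430.3 and 1249.9 to 239, 253 and 244 (log2 difference -2.46 ± 0.19), and Proser2 from 1229.8, 1573 and 1107 to 65.2, 20.6 and 31.9 (log2 difference -5.16 ± 0.34).

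The pan-endothelial list was used to check the labelled cell type. All 24 of its genes were in the table and tested, none was at 0 in a tissue, and their summed level was 192587 to 224165 in mesentery and 76733 to 143582 in epididymal libraries. Cdh5, the adhesion protein whose promoter drives the Cre, had 2948, 2680.5 and 2876 in mesentery and 2172, 4627 and 2560 in epididymal endothelium, values that overlap (log2 difference 0.06 ± 0.28, adjusted p = 0.956). Of the list, 13 genes were lower in epididymal endothelium and 1 was higher, with a median of -1.02. The share called was 58.3%, against 8.46% of all genes. At the same pan-endothelial level, which by construction sets this list level, 7 were lower and 9 higher. With edgeR 7 were lower and 1 higher. Emcn, a sialomucin of veins and capillaries, fell from 24087, 30946 and 31561 to 3554, 7379.6 and 4647 (log2 difference -2.53 ± 0.28, adjusted p = 0.000113). Sox18, a vascular transcription factor, had a log2 difference of -1.69 ± 0.20, and Tie1, an orphan receptor of the angiopoietin system, one of -1.45 ± 0.24. At the same pan-endothelial level these were -0.84 and -0.60, both still called. Pecam1, a junction protein of all endothelium, had 9679.8, 10307 and 10066 against 3730.1, 6515 and 5003 (log2 difference -1.02 ± 0.21, adjusted p = 0.0105). That call was lost at the same pan-endothelial level (adjusted p = 0.376), with edgeR (0.0772) and without mesentery replicate B (0.0511).

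Cldn5, the tight junction claudin of endothelium, was the only gene of this list called higher in the main test, while 4 of the 24 had a positive difference. It had 6144, 1300 and 2948 normalized counts in mesentery and 12555, 22263 and 15268 in epididymal endothelium, 4.82-fold by the means (log2 difference 2.50 ± 0.48, adjusted p = 0.00588). The mesentery libraries ranged more widely than the epididymal ones as a ratio of highest to lowest, and the highest mesentery library remained below the lowest epididymal library.

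**Figure D2:**
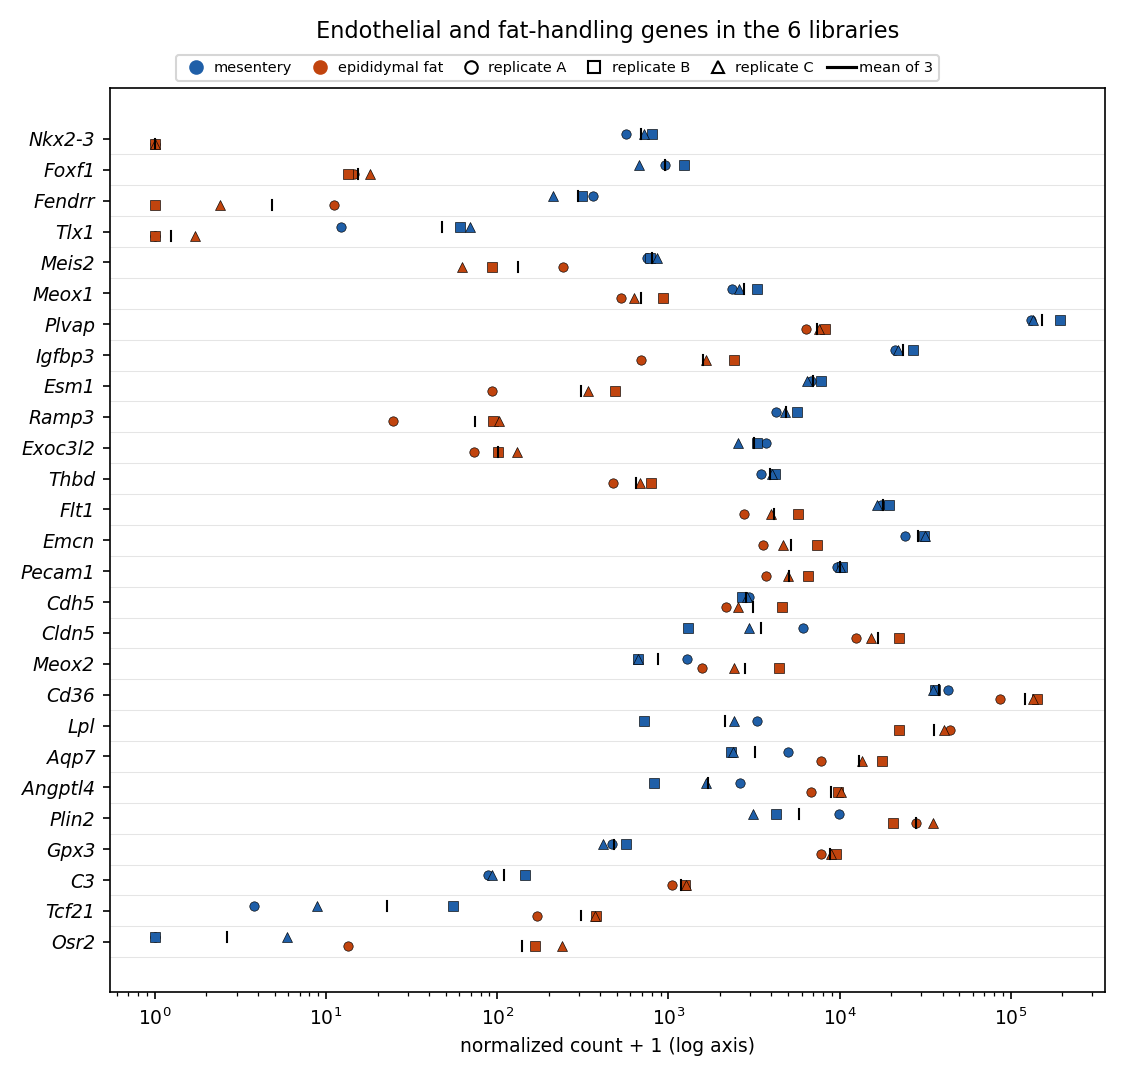
Normalized counts + 1, on a log axis, of 27 genes in each of the 6 libraries, with blue for mesentery, red for epididymal fat, a symbol for each replicate and a black tick at the mean of 3. Nkx2-3 is at 0 in all epididymal libraries, Cdh5 overlaps between the tissues, and Cldn5, Lpl and Gpx3 are higher in every epididymal library.

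Receptors for vascular endothelial growth factor, VEGF, were lower in epididymal endothelium, and ligands went both ways. Flt1, VEGF receptor 1, had 17443, 19502 and 16615 in mesentery and 2757, 5697 and 3978 in epididymal endothelium (log2 difference -2.17 ± 0.30, adjusted p = 0.0006). Kdr, VEGF receptor 2, the main signalling receptor, had 11799, 15882 and 11410.2 against 2347, 5946 and 3518 (log2 difference -1.81 ± 0.36, adjusted p = 0.00721). At the same pan-endothelial level the differences of Flt1 and Kdr were -1.32 and -0.97, and both were still called. Among ligands, Vegfd rose from 31.8, 13.9 and 46.4 to 325, 222 and 292 (log2 difference 3.28 ± 0.60, adjusted p = 0.00467). Pgf, placental growth factor, had 137, 54.1 and 93.9 against 447, 678 and 677 (log2 difference 2.72 ± 0.65), but its call was lost without mesentery replicate B (adjusted p = 0.104), epididymal replicate B (0.0688) or epididymal replicate C (0.0937). Fibroblast and pericyte markers rose in the same libraries, and their part in the rises of Vegfd and Pgf was not tested. The ligand Vegfc, which acts on the lymphatic receptor Flt4, went from 921, 1135 and 969 to 326, 819 and 386 (log2 difference -1.10 ± 0.32, adjusted p = 0.0499), and 12 of 21 alternatives lost its call, among them edgeR (adjusted p = 0.201), the same pan-endothelial level (0.497) and leaving out any 1 library but epididymal replicate B, the highest being 0.204 without epididymal replicate C. Of the 20 VEGF and tip cell genes tested, 7 were lower and 3 higher, with a median of -0.49. The count turned to 3 lower and 10 higher at the same pan-endothelial level. Of 17 Notch pathway genes tested 1 was lower and none higher, with a median of -0.05, and at the same pan-endothelial level 8 were called higher. In the main test 50% of the VEGF and tip cell list and 5.88% of the Notch list were called, against 8.46% of all genes.

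Components of signalling by bone morphogenetic proteins, BMPs, and transforming growth factor beta, TGF-beta, were also unequal. The receptors Acvrl1 and Bmpr2 and the co-receptor Eng fell, with log2 differences of -1.56 ± 0.23, -2.06 ± 0.28 and -1.68 ± 0.21. At the same pan-endothelial level these were smaller, -0.72, -1.215 and -0.84, and all were still called. Eng is itself in the pan-endothelial list. The inhibitory SMADs, which the pathway induces, fell as well: Smad6 went from 956, 1094 and 733 to 163, 208 and 184 (log2 difference -2.31 ± 0.29, adjusted p = 0.000298). Smad7 went from 369, 410.2 and 419 to 98.9, 109 and 88.5 (log2 difference -2.01 ± 0.30, adjusted p = 0.0013). These 5 genes had every mesentery library above every epididymal library. Ligands went both ways. Tgfb2 had a log2 difference of -2.16 ± 0.28, and Bmp4 one of 1.52 ± 0.35, whose call was lost at the same total (adjusted p = 0.083) and without mesentery replicate B (0.07) or epididymal replicate B (0.0719) or C (0.067). The ligand Gdf10 had a log2 difference of 2.29 ± 0.57, and its call was lost with edgeR (adjusted p = 0.0565), at the same total (0.0573) and without mesentery replicate B (0.111) or C (0.0731) or epididymal replicate B (0.104) or C (0.105). Bmper, a secreted protein that binds BMPs, rose from 8.42, 0 and 17.8 to 149.5, 106 and 162 (log2 difference 4.62 ± 0.88, adjusted p = 0.00614). Markers of fibroblasts and pericytes were also higher in epididymal libraries, and their part in the rises of Bmp4, Gdf10 and Bmper was not tested. In all, 6 of 24 genes tested were lower and 3 higher, with a median of -0.30. The share called was 37.5%, against 8.46% of all genes. At the same pan-endothelial level 6 were lower and 11 higher.

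Genes that control clotting differed in both directions. Thbd, thrombomodulin, the endothelial cofactor that turns thrombin to an anticoagulant role, fell from 3496, 4199 and 4032 to 474, 786 and 679 (log2 difference -2.62 ± 0.19, adjusted p = 3.23e-06). F3, tissue factor, which starts coagulation, rose from 55.2, 121 and 83 to 777, 1586 and 1037 (log2 difference 3.71 ± 0.39, adjusted p = 7.14e-05). F7, coagulation factor VII, the partner of tissue factor, rose from 7.48, 2.77 and 64.2 to 731, 539 and 1079 (log2 difference 5.88 ± 0.89, adjusted p = 0.00124). Mesentery replicate C was the highest mesentery library for F7 but far below the epididymal libraries. Plau, urokinase, which activates plasminogen, had a log2 difference of 3.48 ± 0.69. Fibroblast and macrophage markers were also higher in epididymal libraries, and their part in the rises of F3, F7 and Plau was not tested. Thbs1, thrombospondin 1, fell with a log2 difference of -2.06 ± 0.27. F2r, a thrombin receptor, had a log2 difference of -1.47 ± 0.24, and its call was lost at the same pan-endothelial level (adjusted p = 0.074). Of the 16 haemostasis genes tested, 3 were higher and 3 lower, with a median of 0.39, and 10 were higher and 2 lower at the same pan-endothelial level. In the main test 37.5% of the list were called, against 8.46% of all genes.

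Genes of vessel tone and of leukocyte adhesion were called in 33.3% and 18.8% of cases, against 8.46% of all genes. In the vasoactive list 5 of 21 genes were lower and 2 higher, with a median of -0.26, against 2 lower and 9 higher at the same pan-endothelial level. Nostrin, which binds endothelial nitric oxide synthase and moves it from the membrane, fell from 1600.2, 3385 and 2477 to 396, 374 and 433 (log2 difference -2.57 ± 0.27, adjusted p = 7.01e-05). Ptgs1, cyclooxygenase 1, fell from 2595, 2273 and 2409.9 to 499, 699 and 649.7 (log2 difference -1.99 ± 0.20, adjusted p = 5.3e-05). Ptgis, prostacyclin synthase, went the other way, from 30.9, 1.39 and 11.9 to 115, 211 and 131 (log2 difference 3.90 ± 0.79, adjusted p = 0.00849). It is also made by smooth muscle, whose marker list had a summed level of 2019 to 3208 in mesentery and 4632 to 9109.8 in epididymal libraries, and the part of such cells was not tested. Of the 16 leukocyte adhesion genes tested 3 were lower and none higher, with a median of -0.35, and 2 were lower and 5 higher at the same pan-endothelial level. Jam3, a junctional adhesion molecule, had a log2 difference of -2.79 ± 0.23, and Podxl, a sialomucin of the luminal surface, one of -2.05 ± 0.23.

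The arterial, capillary and venous lists had calls in both directions, and the lymphatic list had 1 call. The shares called were 31.8% of arterial, 46.7% of capillary, 14.3% of venous and 6.25% of lymphatic genes, against 8.46% of all genes. The venous share rests on 2 genes and the lymphatic share on 1. Of 22 arterial genes tested 4 were higher and 3 lower, with a median of -0.37. Mgp, matrix Gla protein, which inhibits calcification and BMP signalling, rose from 569, 373 and 1474 to 9226, 6255 and 5807 (log2 difference 3.35 ± 0.54, adjusted p = 0.00211). The part in the Mgp rise of fibroblasts and pericytes, whose markers were also higher in epididymal libraries, was not tested. Alox12, a lipoxygenase, fell, with a log2 difference of -2.53 ± 0.32 (adjusted p = 0.000298). Of 14 venous genes 1 was higher and 1 lower, the latter Ephb4, the ephrin receptor of veins, with -1.48 ± 0.23. Of 15 capillary genes 3 were higher and 4 lower. Timp4, a metalloproteinase inhibitor, had 4707, 962 and 2363 against 5772, 16246 and 11299 (log2 difference 2.21 ± 0.49, adjusted p = 0.0139), and its call was lost without mesentery replicate B (adjusted p = 0.0614), epididymal replicate B (0.0569) or C (0.0666). Of 16 lymphatic genes none was higher and 1 was lower, although the median was 1.24. Lyve1, a hyaluronan receptor of lymphatic endothelium and some macrophages, had 108, 315 and 422 in mesentery and 999, 758 and 871 in epididymal endothelium and was not called (adjusted p = 0.0815), although it was in the 6 high fat libraries alone (adjusted p = 0.0265), with DESeq2 (0.023) and at the same pan-endothelial level (0.0063). At the same pan-endothelial level the arterial list had 9 higher and 1 lower, the venous list 7 and 1, the capillary list 8 and 2, and the lymphatic list 7 and 0.

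**Figure D3:**
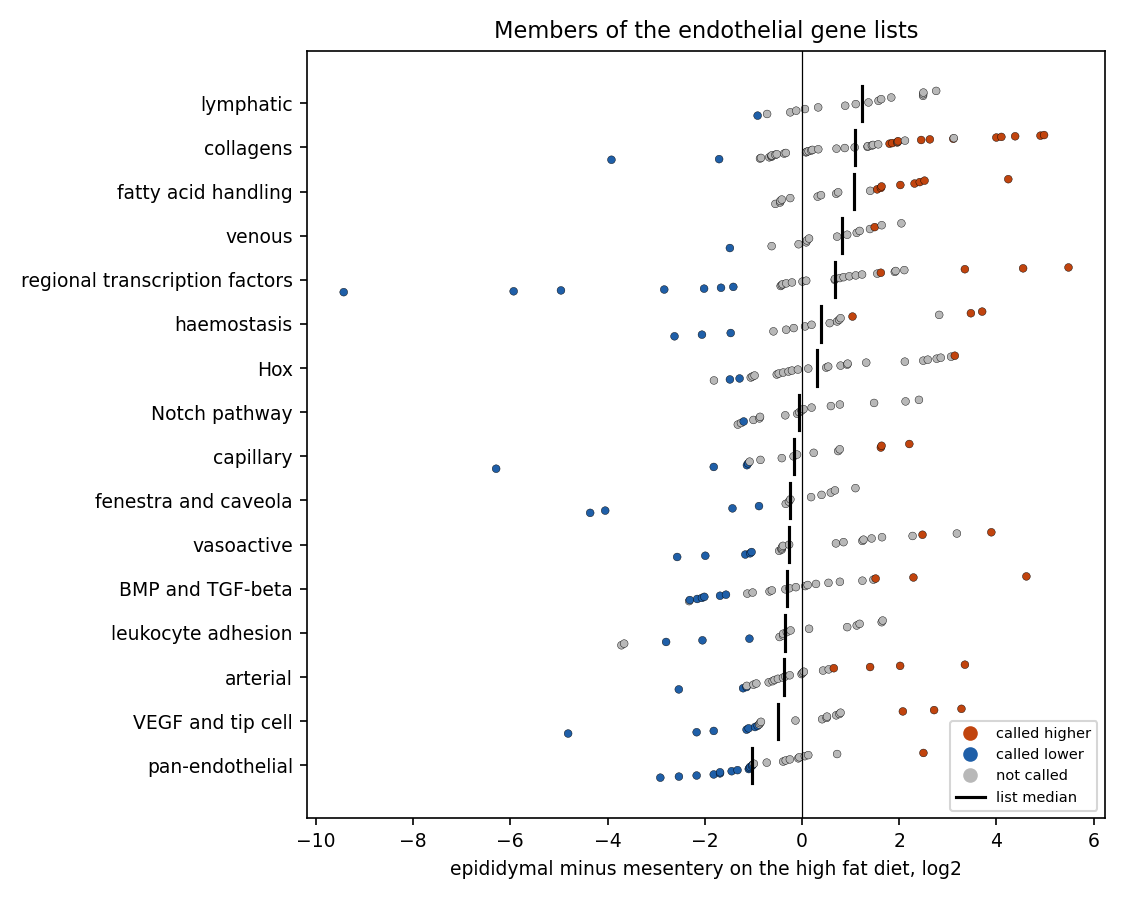
Log2 differences on the high fat diet, epididymal minus mesentery, of the tested members of 16 lists, 1 point per gene, with red for genes called higher, blue for genes called lower, grey for genes not called and a black bar at the list's median. The pan-endothelial list has the lowest median, -1.02, and the fatty acid list has no gene called lower.

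Genes of fatty acid handling were higher in epididymal libraries. Of 18 tested 8 were higher and none lower, with a median of 1.08, and on the rescaled libraries 7 were higher and none lower at the same total and 12 and none at the same pan-endothelial level. In the main test 44.4% of the list were called, against 8.46% of all genes. Lpl, lipoprotein lipase, which frees fatty acids from lipoproteins, had 3308, 723 and 2422 normalized counts in mesentery and 43887, 22122 and 40823 in epididymal endothelium. This was 16.6-fold by the means (log2 difference 4.25 ± 0.47, adjusted p = 0.000115). Lpl is made by adipocytes, muscle and macrophages and is carried to the vessel wall. The summed level of the adipocyte list was 18203 to 37299 in mesentery and 14304 to 63741 in epididymal libraries, values that overlap, and that of the macrophage list was 4733 to 27508 in mesentery and 157846 to 398075 in epididymal libraries. The part of either cell type in the Lpl result, or in the results for the other genes of this list, was not tested.

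Cd36, a fatty acid translocase of capillary endothelium and macrophages, had 42867, 36206 and 35237 in mesentery and 86853, 141583 and 134265 in epididymal endothelium (log2 difference 1.64 ± 0.35, adjusted p = 0.0126). The tissues did not overlap, and the call was lost in a fit of the 6 libraries alone (adjusted p = 0.056) and without mesentery replicate B (0.0712), mesentery replicate C (0.0516) or epididymal replicate C (0.0635). Aqp7, a glycerol channel, rose from 4975, 2319 and 2386 to 7778, 17706 and 13478 (log2 difference 2.02 ± 0.36, adjusted p = 0.00405). Angptl4, a secreted inhibitor of lipoprotein lipase, rose from 2624, 820.5 and 1650.1 to 6786, 9813 and 10151 (log2 difference 2.52 ± 0.35, adjusted p = 0.000739). Plin2, a coat protein of lipid droplets, rose from 9975, 4247 and 3110.4 to 28083, 20548 and 35341 (log2 difference 2.42 ± 0.35, adjusted p = 0.000917). Slc27a1, a fatty acid transport protein, had a log2 difference of 2.32 ± 0.46. Fabp5, a fatty acid binding protein, had one of 1.55 ± 0.31 (adjusted p = 0.0087), which was lost without mesentery replicate B (adjusted p = 0.0595).

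Some well known members did not pass. Fabp4, the fatty acid binding protein of fat and capillaries, had 149287, 113023 and 163411 in mesentery and 319411, 465212 and 344598 in epididymal endothelium (log2 difference 1.41 ± 0.56, adjusted p = 0.162). Gpihbp1, which anchors lipoprotein lipase to capillaries, had 31031, 27355 and 23099.9 against 31061, 64731 and 45975 (log2 difference 0.75 ± 0.35, adjusted p = 0.244). Pparg, the nuclear receptor that induces several of these genes, had 1494, 1361 and 1158 against 1601, 2765 and 2307 (log2 difference 0.71 ± 0.21, adjusted p = 0.0529). Every epididymal library was above every mesentery library for all 3, as for 15.1% of all genes tested, and none passed the threshold. For Gpihbp1 the closest libraries were nearly equal, at 31061 and 31031. All 3 were called with DESeq2, with the highest adjusted p 0.0207, and at the same pan-endothelial level, with the highest 0.000165.

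Outside the marker lists of other cell types, the 8 higher genes named for a small p held secreted, matrix, membrane and lysosomal proteins. Gpx3, a secreted glutathione peroxidase, had 469, 564 and 416 in mesentery and 7833, 9495 and 8949.9 in epididymal endothelium, 18.1-fold by the means (log2 difference 4.18 ± 0.30, adjusted p = 2.99e-06). C3, the central complement protein, had 87.9, 144 and 91.9 against 1042, 1256 and 1263 (log2 difference 3.48 ± 0.28, adjusted p = 7.68e-06). Col6a1, a chain of collagen VI, had 45.8, 62.4 and 105 against 1099, 1730.1 and 1507 (log2 difference 4.39 ± 0.38). For these 3 genes the lowest epididymal library was above the highest mesentery library. Dpep1, a membrane dipeptidase, had a log2 difference of 4.88 ± 0.44, and Timp2, a metalloproteinase inhibitor, one of 3.51 ± 0.34. The lysosomal proteases Lgmn, legumain, and Ctsl, cathepsin L, had log2 differences of 3.71 ± 0.36 and 2.11 ± 0.21, and Acp5, an acid phosphatase of osteoclasts and macrophages, one of 3.30 ± 0.26. The largest adjusted p among these 8 genes was 3.86e-05. Summed fibroblast markers were 5137 to 11095 in mesentery and 53507 to 69242 in epididymal libraries. Summed macrophage markers were 4733 to 27508 in mesentery and 157846 to 398075 in epididymal libraries. The part of such cells in these 8 results was not tested.

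Of 41 collagen genes tested 12 were higher and 2 lower, with a median of 1.08. The share called was 34.1%, against 8.46% of all genes. Col3a1, of fibrillar collagen III, rose from 209, 162 and 398 to 7560.2, 6989.8 and 8181 (log2 difference 4.98 ± 0.31, adjusted p = 7.88e-07). Col1a1, of collagen I, rose from 65.5, 16.6 and 63.2 to 753, 619 and 817 (log2 difference 4.10 ± 0.53, adjusted p = 0.000361). Both are main products of fibroblasts. The 2 that fell were Col13a1, a transmembrane collagen, with 2564, 2977 and 1599.7 in mesentery and 105, 195 and 169.9 in epididymal endothelium (log2 difference -3.92 ± 0.47), and Col15a1, a basement membrane collagen, with a log2 difference of -1.70 ± 0.31. Of 12 fibroblast markers tested 11 were higher and none lower, which is 91.7% called. Lum, lumican, a proteoglycan of collagen fibrils, had 68.3, 77.6 and 194 against 6455, 6764 and 7409 (log2 difference 6.07 ± 0.37, adjusted p = 6.88e-07), and Pdgfra, the receptor that marks fibroblasts, had 37.4, 23.6 and 11.9 against 210.2, 244 and 277 (log2 difference 3.40 ± 0.64). No fibroblast marker was at 0 in a whole tissue, and the part of such cells in the collagen result was not tested.

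Markers of other cell types were higher in epididymal libraries too. The shares called were 73.3% of macrophage and 60% of pericyte markers, against 8.46% of all genes. Of 15 macrophage markers 11 were higher and none lower, with a median of 4.30, a median of 4.11 at the same total and 5.14 at the same pan-endothelial level. Trem2, a lipid receptor of macrophages in obese fat, had 484, 19.4 and 78.1 in mesentery and 5977, 2295 and 4874 in epididymal endothelium (log2 difference 5.46 ± 0.89, adjusted p = 0.00211). Gpnmb, a glycoprotein of the same cells, had 7900, 5.54 and 75.1 against 51466, 13675 and 37943, and mesentery replicate A was far above the other 2. Its log2 difference was 7.56 ± 1.79 (adjusted p = 0.0203), and the call was lost with edgeR (adjusted p = 0.27), with DESeq2 (0.105), and without mesentery replicate B (0.079) or C (0.0574) or epididymal replicate A (0.0561) or C (0.0844). No macrophage marker was at 0 in a whole tissue. None of the 7 genes of MHC class II was called, although the median was 3.14: H2-Ab1, which presents antigen, had 3602, 2643 and 17658 against 24681, 34443 and 135623 (adjusted p = 0.0815). Of the 7, 6 were called higher at the same pan-endothelial level, and H2-Ab1 was called there (adjusted p = 0.00855), in the 6 high fat libraries alone (0.0315) and without mesentery replicate C (0.0407). Of 10 pericyte markers 6 were higher, with summed levels of 1971 to 4008 in mesentery and 6504 to 10578 in epididymal libraries. Pdgfrb, the growth factor receptor of pericytes, rose from 52.4, 22.2 and 32.6 to 329, 384 and 317 (log2 difference 3.31 ± 0.42, adjusted p = 0.000341).

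All 5 red blood cell genes were higher in epididymal libraries, against 4.99% of all genes. Hba-a1, an alpha globin, had 176, 69.3 and 169 in mesentery and 14458, 16580.2 and 14433 in epididymal endothelium (log2 difference 6.88 ± 0.29, adjusted p = 1.87e-08). Hba-a1 has a near-identical copy, so how reads were divided between the copies is uncertain. Alas2, the first enzyme of haem synthesis in red cells, had 1.87, 2.77 and 3.95 against 114, 64.4 and 70.1 (log2 difference 4.43 ± 0.62).

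Among the genes named for the size of their rise, chosen outside the marker lists of other cell types, several were low or absent in mesentery. Fibroblast and macrophage markers were also higher in epididymal libraries, and their part in the rises named by size was not tested. Npy, neuropeptide Y, had no read in mesentery and 221, 78.5 and 134 in epididymal endothelium, at least 43.8-fold higher with a floor of 3 reads per library (adjusted p = 0.00347). Itgbl1 had 0, 0 and 17.8 against 291, 329.5 and 272 (log2 difference 6.81 ± 1.04, adjusted p = 0.00138), and Ctsk, cathepsin K, which degrades collagen, had 19.6, 26.3 and 103 against 4531, 1809 and 4291 (log2 difference 6.40 ± 0.52, adjusted p = 7.68e-06). Podn, podocan, a small proteoglycan, had 2 reads in mesentery and 129, 99.9 and 130.2 in epididymal endothelium, a ratio of 168 with a 95% counting interval from 46.1 to 1388 (adjusted p = 0.000739). Cilp, a matrix protein, had 0, 23.6 and 12.8 against 393, 435 and 433 (log2 difference 5.92 ± 1.09, adjusted p = 0.00464). For these genes the lowest epididymal library was above the highest mesentery library. Dnmt3aos had 3 reads in mesentery and 141, 82.6 and 148 in epididymal endothelium, a ratio of 115 (95% counting interval 39.2 to 562). With genes of a mean of at least 50 alone, the adjusted p was 0.111 for Npy and 0.324 for Dnmt3aos. Dnmt3aos is antisense to Dnmt3a, and without knowledge of strand its reads cannot be told from those of Dnmt3a.

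Another 3 genes named for the size of their rise lost their calls when single libraries were left out. Fst, follistatin, which binds activin, had 0, 0 and 14.8 against 153, 155 and 169, and its adjusted p of 0.0132 rose to 0.0528 without mesentery replicate A, 0.0665 without mesentery replicate B, 0.0644 without epididymal replicate C and 0.0825 with edgeR. Mmp12, macrophage elastase, had 10638, 18 and 136 against 32080.2, 10896 and 35723 (adjusted p = 0.0363), and its call was lost with edgeR (adjusted p = 0.42), with DESeq2 (0.237), in the 6 high fat libraries alone (0.0546) and on leaving out any 1 library but mesentery replicate A, the highest being 0.157 without mesentery replicate B. Tifab had 0, 0 and 147 against 328, 218 and 683 (adjusted p = 0.0436), and its call was lost with edgeR (adjusted p = 0.363), with a pseudocount of 0.5 (0.0503) and on leaving out any 1 library but mesentery replicate C, the highest being 0.183 without mesentery replicate B.

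Pancreatic genes were the largest falls in the table. Of 32 genes of pancreatic acinar cells tested, 30 (93.8%) were lower in epididymal libraries, against 3.47% of all genes. None was higher, and the list median was -9.99. The summed level of the list was 191695 to 362602 in mesentery and 534 to 839 in epididymal libraries. Clps, colipase, the cofactor of pancreatic lipase, had 43538, 41148 and 21964 in mesentery and 2.25, 1.65 and 0 in epididymal endothelium (log2 difference -14.02 ± 0.87, adjusted p = 7.88e-07). Prss2, a trypsin, had 20145, 13883 and 9262 in mesentery and no read in epididymal endothelium, at least 5429-fold higher in mesentery with a floor of 3 reads per library. Ins2, insulin of islet beta cells, had 542, 588 and 302 against 5.62, 0 and 0 (log2 difference -7.93 ± 1.14, adjusted p = 0.000829). Trypsin, amylase and insulin genes have near-identical copies, so the division of reads among them is uncertain.

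Several genes named for the size of their fall are also known as products of pancreas or gut. Rnase1, a secreted ribonuclease of the pancreas, had 25235, 25164 and 10702 in mesentery and 60.7, 43.8 and 36.1 in epididymal endothelium (log2 difference -8.66 ± 0.84, adjusted p = 3.65e-05). Tff2, a trefoil peptide of mucus, had 759, 694 and 432 in mesentery and no read in epididymal endothelium, at least 236-fold higher in mesentery (adjusted p = 1.59e-05). Klk1, tissue kallikrein, had 669.6, 651 and 438 against 13.5, 0 and 8.49 (log2 difference -6.80 ± 0.87, adjusted p = 0.000347). The part of pancreatic RNA in these 3 results was not tested. Pdia2, a pancreatic disulfide isomerase, had 360.1, 304 and 119 against 11.2, 0 and 2.12 (adjusted p = 0.0116), and the call was lost without mesentery replicate A (0.0505), mesentery replicate B (0.0593) or epididymal replicate C (0.0503). Try10, of the trypsin family, had 226, 249 and 204 against 20.2, 0 and 0 (adjusted p = 0.00768), and the call was lost with edgeR (adjusted p = 0.0589) and DESeq2 (0.0751). Ces2e, a carboxylesterase, had 2826, 3264 and 3099.6 against 13.5, 21.5 and 23.4 (log2 difference -7.26 ± 0.40, adjusted p = 2.7e-07). Chrm2, the muscarinic acetylcholine receptor M2, had 74.8, 327 and 279 against 1.12, 3.3 and 1.42 (log2 difference -6.09 ± 0.72, adjusted p = 0.000181). The 8 intestinal epithelium markers tested gave no call, with a summed level of 679 to 1099.8 in mesentery and 392 to 612 in epididymal libraries.

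**Figure D4:**
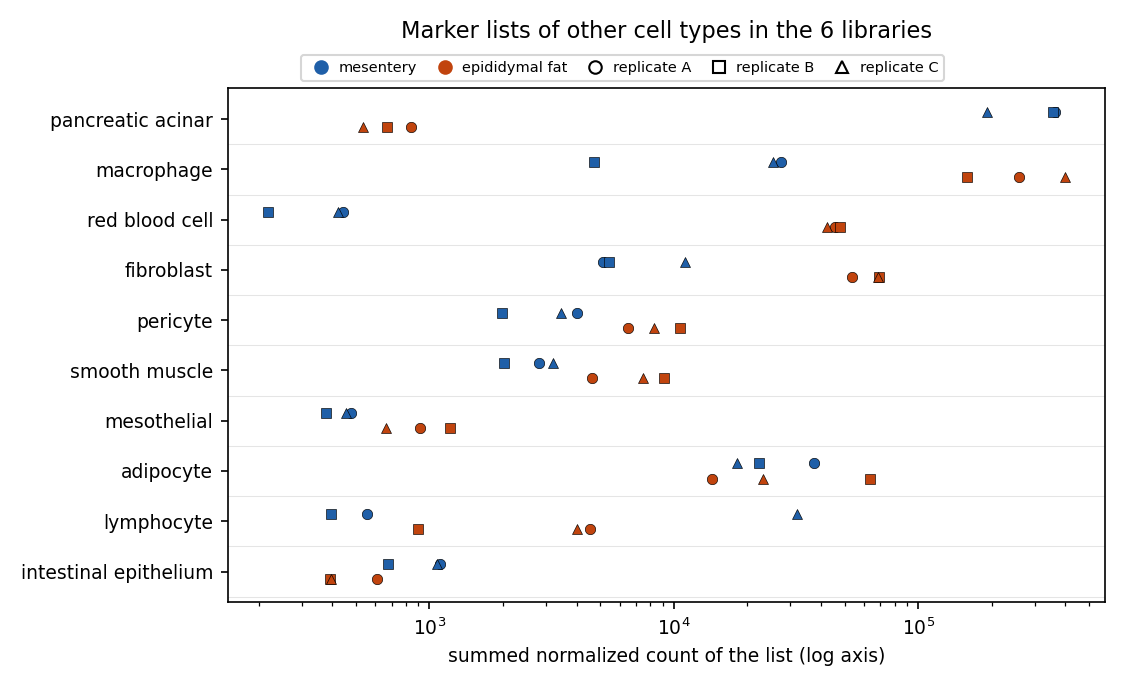
Summed normalized counts, on a log axis, of 10 marker lists of other cell types in each of the 6 libraries, with blue for mesentery, red for epididymal fat and a symbol for each replicate. The acinar list is higher in every mesentery library, the macrophage, red blood cell and fibroblast lists are higher in every epididymal library, and the adipocyte list overlaps.

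Interferon response, immediate early and cell cycle genes differed in part. In that order 44.4%, 21.1% and 31.2% of the lists were called, against 8.46% of all genes. Of 18 interferon response genes tested 8 were lower and none higher, with a median of -0.90; at the same total 12 were lower, and at the same pan-endothelial level 3 were lower and 3 higher. Ifi44, an interferon-induced gene, fell from 1338, 1651 and 1647 to 344, 351 and 267 (log2 difference -2.27 ± 0.20, adjusted p = 1.67e-05). Rsad2, the antiviral enzyme viperin, fell from 3722, 3652 and 4284 to 1106, 1910.1 and 1091 (log2 difference -1.55 ± 0.21, adjusted p = 0.000534). Irf7, the factor that amplifies the response, had a log2 difference of -1.28 ± 0.23 and was not called at the same pan-endothelial level (adjusted p = 0.122). Of 19 immediate early genes, which dissociation can induce, 4 were higher and none lower, with a median of 0.79, and 1 was higher and 1 lower at the same total. Egr1, an immediate early transcription factor, had 769, 830.2 and 1210.4 against 2763, 4349 and 3369 (log2 difference 1.90 ± 0.41, adjusted p = 0.0117); its call was lost without mesentery replicate A (0.0508) or B (0.059). Of 16 cell cycle genes 5 were higher and none lower, with a median of 1.67. Ccnb2, cyclin B2, rose from 62.7, 12.5 and 59.3 to 337, 297 and 544 (log2 difference 3.35 ± 0.60, adjusted p = 0.0041).

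The same tissue difference was measured in mice on chow. There 2812 genes were called, 12.7% of the genes tested, of which 7.29% were higher and 5.45% lower in epididymal endothelium. Of the 1868 genes called on the high fat diet 1205 were also called on chow, all in the same direction, which is 64.5% of the high fat calls and 42.9% of the chow calls. The sign on chow matched that on the high fat diet for 98.2% of the high fat calls, against 73.3% of all genes tested. Across genes, which are not independent replicates, the differences on both diets had a Pearson's r of 0.668. The median absolute log2 difference over all genes was 0.55 on the high fat diet and 0.67 on chow. On chow the log2 difference was -5.21 for Foxf1, -3.73 for Plvap, -5.60 for Ramp3, 4.06 for Gpx3, 3.17 for Aqp7 and 4.25 for Cldn5. For Lum it was 3.07, for F3 1.15 and for F7 -0.32. None of these 9 genes was called in the test of the difference between diets.

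That test called 1 gene, Kcnj8, 0.00453% of those tested, while 1032 genes (4.67%) had an unadjusted p under 0.05. Kcnj8 encodes a pore subunit of ATP-sensitive potassium channels, found in pericytes and smooth muscle. On the high fat diet it had 384, 319 and 369 normalized counts in mesentery and 518, 903 and 793 in epididymal libraries. On chow it had 80.8, 102 and 144 in mesentery and 2519, 2568 and 3247 in epididymal libraries. The pericyte list had a median of 2.03 on the high fat diet and 3.43 on chow, and its part in this result was not tested. The tissues did not overlap on either diet, and the high fat values of Kcnj8 lay between the chow values of both tissues. The log2 difference between tissues was 1.01 ± 0.25 on the high fat diet (adjusted p = 0.0247) and 4.69 on chow, and the difference of these was -3.68 ± 0.35 (adjusted p = 0.00215). The call on the high fat diet alone was lost at the same total (adjusted p = 0.15) and without mesentery replicate A (0.0542) or B (0.103) or epididymal replicate B (0.0989) or C (0.112). The test of the difference between diets passed in all 25 alternatives, with the adjusted p at most 0.0218. DESeq2 on the recovered reads called 130 genes in that test, edgeR called 1, and leaving out chow mesentery replicate C gave 20 calls in the main test.

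**Figure D5:**
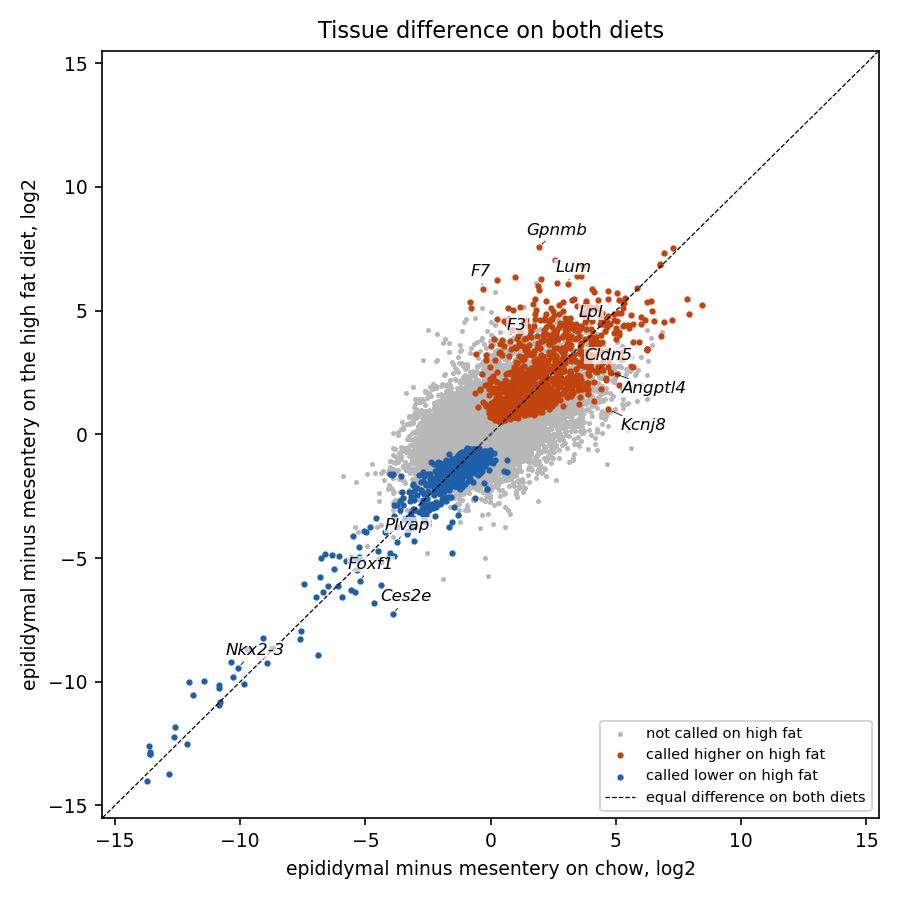
Log2 difference between tissues, epididymal minus mesentery, with chow on the horizontal axis and the high fat diet on the vertical axis, for the 22082 genes tested, with red and blue for genes that the high fat comparison called higher or lower and a dashed line where both differences are equal. Kcnj8 lies below the line, at 4.69 for chow and 1.01 for the high fat diet, and Nkx2-3 and the pancreatic genes lie near the line.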

How the data were processed

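RNA was measured in endothelial cells sorted from mesentery and epididymal fat, in 12 libraries of 4 groups of 3, taken from the sample titles. The authors deposited 1 table that holds, for each gene and library, a normalized count, here treated as a signal. Per the submitters' processing notes, STAR 2.7.9a, featureCounts from Subread and DESeq2 1.34.0 were used with build mm39. Divided by a step common to its library, every deposited value came out whole (100% of values), so read counts were recovered for the alternative tests. The floor of 3 reads and the counting intervals cover counting error only. Because no coordinates of build mm39 were used here, gene positions are not given. Symbols came from the deposited table.

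Genes were tested if their average over the 6 high fat libraries reached 10. Log2(value + 1) was fitted with limma 3.58.1 in R 4.3.3 (lmFit, eBayes with trend), with 4 group means over all 12 libraries. Benjamini-Hochberg adjustment was made over all 22082 genes, and the threshold was 0.05. The contrasts were epididymal minus mesentery on the high fat diet, and that difference minus the one on chow. P-values measure the spread between libraries, which may be partly technical. The epididymal and mesentery libraries of a diet share numbers in their descriptions, here called pool numbers. The descriptions do not say what these numbers stand for. No source used here states a paired test, so the main test left the numbers out and a replicate block was an alternative. Deviations from the group means correlated at -0.133, 0.138 and -0.096 for the 3 high fat pairs of equal number. With 3 libraries a tissue these correlations cannot settle whether the libraries are paired.

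Named genes were up to 10 each way with the largest change and up to 8 more with the smallest adjusted p, among called genes whose groups did not overlap and whose higher group averaged 100 or more. Genes without a single symbol, predicted genes, clones, pseudogenes and members of other-cell lists were skipped, and members of the lists were allowed. The members and lists were chosen with earlier results of these data known. Alternatives used a replicate block, edgeR 4.0.16, DESeq2 1.42.0, other pseudocounts, filters and scalings, array weights, and each library left out. The scripts were tested on simulated data. Of the 36 genes named by size or p, 30 had a promoter in the RefSeq table.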

Additional observations from a re-analysis of the deposited data

Results flagged for a closer look

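Kcnj8 was the gene for which the difference between tissues differed between diets by a direct test of that difference. The change, high fat minus chow, was -3.68 on the log2 scale (limma, adjusted p = 0.00215), with a tissue difference of 1.01 on the high fat diet and 4.69 on chow. Mesentery was lower than epididymal endothelium in all 3 pairs of libraries with the same number on both diets. The groups hold 3 libraries each, which is too few for a test of single libraries that stand apart.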

How the results depend on the processing

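The count of 1868 genes on the high fat diet rose to 1904 when the pool number was a replicate block, of which 1660 were shared, and the replicate block gave 2 calls in place of 1 in the test between diets. In that replicate block Kcnj8 had an adjusted p of 0.00988. On the high fat diet edgeR gave 1030 calls, DESeq2 2927, and rescaling to the pan-endothelial level, chosen after seeing the data, 7206. Array weights gave 4545, with weights from 0.205 for chow mesentery replicate C to 33.18 for chow mesentery replicate A. Libraries numbered 50 to 53 alone gave 2511, and the number range, 50 to 53 or 87 to 88, as a covariate gave 2446. Replicate A of both high fat groups has the number 88. Leaving out 1 library gave between 727 and 1752 calls. List counts with edgeR were lower for VEGF and tip cell genes, with 2 higher and 3 lower, and for interferon response genes, with 4 lower. They were also lower for macrophage markers, with 6 higher, and mesothelial markers, with 0. Fatty acid genes kept 8 higher and fibroblast markers 11 higher. The test between diets gave 11 calls in libraries numbered 50 to 53 alone, 3 with a mean of at least 50, 130 with DESeq2, 672 with array weights and 2 at the pan-endothelial level, and between 1 and 20 on leaving out 1 library. The cause of these moves was not tested; fewer samples enter when a library is left out. Rescaling to the same total gave 2001 calls, of which 35.5% were higher in epididymal endothelium, against 58.9% in the main test and 96.5% at the pan-endothelial level. Cdh5, not called, changed sign at the same total (-0.13) and, over libraries left out, ranged from -0.26 without epididymal replicate B to 0.28 without epididymal replicate A. Of the 108 called genes named in the text, 85 kept their call in every alternative run and none changed sign. There were 21 alternatives for each gene but 20 for Alas2, Plau and Tlx1, which the minimum mean of 50 left out. Of the 108, 8 lost the call with edgeR, 4 with DESeq2, 4 at the pan-endothelial level, 4 at the same total, 4 in the 6 high fat libraries alone and 18 on leaving out some library. The replicate block lost 1 in 12 libraries, Gdf10 (adjusted p = 0.051), and 2 in the 6 high fat libraries alone, Cd36 (0.113) and Tlx1 (0.104); in 12 libraries it called 4 of 7 MHC class II genes higher, with 0.0402 for H2-Ab1. All 7 named genes that were not called passed in some alternative. Tifab and Vegfc lost their calls in libraries numbered 50 to 53 alone (0.12 and 0.118). Depth limits genes near the floor of 3 reads, which equals 2.12 to 4.16 normalized counts in the high fat libraries.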

Other observations

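In lists not counted above, the share called was 40% of smooth muscle, 33.3% of pancreatic islet, 22.2% of mesothelial and 14.3% of adipocyte markers. Over all genes it was 8.46%, and no gene of the remaining lists given here was called. Of 10 smooth muscle markers 4 were higher and none lower, with a median of 2.25. Of 6 islet markers 2 were lower and none higher, with a median of -2.11. Of 12 lymphocyte markers none was called, with a summed level of 396 to 32031 in mesentery, where replicate C was highest, and 901 to 4518 in epididymal libraries. Of 9 mesothelial markers 2 were higher and none lower, with a median of 1.65. Of 14 adipocyte markers 1 was lower and 1 higher, with a median of 0.34, against a median of 3.52 on chow. None of 3 epididymis and sperm markers, 6 nerve and glia markers, 4 mast cell and neutrophil markers and 20 mitochondrial genes was called. The mitochondrial median was -0.60 on the high fat diet and -1.89 on chow. Olfactory receptor genes, which endothelium is not known for, summed to between 182 and 2158 CPM in the high fat libraries, highest in epididymal replicate A and mesentery replicate C.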
